A study of Mus musculus with 6 samples.

Results

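The nucleolar ribosome biogenesis genes were followed in mouse embryonic stem cells whose protein synthesis had been blocked with cycloheximide. Members were taken by symbol: Nop, Utp, Nol or Rrp followed by a digit, Polr1a to Polr1e, and Ncl, Npm1, Fbl, Dkc1 and Tcof1. This gave 43 of the 17484 genes in the count files. Of these, 42 passed the filter on low counts, among 12755 genes tested in all. Nol4 did not pass: it had 0 counts in every library except the second 3 h library, which had 4. Nol3 and Nol4 share the name stem with the others but are not known as ribosome biogenesis factors, and Nol3 encodes an apoptosis repressor.

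RNA was measured in bulk from E14 cells, an established pluripotent line of 129/Ola background, kept in 15% serum with LIF and treated 24 h after seeding. Treatment was 3 h or 6 h of cycloheximide, at a dose of 250 µg/mL and with 0.007% ethanol as its vehicle, and control cells had ethanol without the drug for 9 h. Each of the 3 groups had 2 libraries of polyadenylated RNA. All groups come from the same line, and control and treated cells were exposed for different numbers of hours, so the effect of time and that of the drug cannot be told apart. The labels do not say whether the libraries of a group came from separate cultures, so p-values measure only the spread between these libraries.

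Ribosomes are built in the nucleolus. RNA polymerase I transcribes a long precursor of ribosomal RNA, which is folded, cut and chemically modified while ribosomal proteins are added. Box C/D ribonucleoproteins, which include Fbl, Nop56, Nop58 and a guide RNA, add methyl groups to ribose. Box H/ACA ribonucleoproteins, which include Dkc1 and Nop10, convert uridine to pseudouridine. The small-subunit processome, to which most Utp proteins belong, assembles on the precursor and leads to the small subunit, and a separate set of factors matures the large subunit. Growing stem cells make many ribosomes and express these genes broadly.

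Some members carry in their introns the guide RNAs that the pathway uses. In the GENCODE M21 annotation (GRCm38), 4 members enclosed annotated small nucleolar RNAs (snoRNAs) on their own strand: Nop56 with 5, Nop58 with 4, Ncl with 3 and Dkc1 with 1. The sequences below lie within the 2 box C/D scaffold genes and Ncl, and none overlaps an exon of a coding transcript. Capitals mark the C box (TGATGA) and D box (CTGA) of box C/D RNAs, or the ACA box of the box H/ACA RNA, and all are given 5′ to 3′ on the RNA strand with T for U.
Snord110, in Nop56, chr2:130275506-130275573, plus strand: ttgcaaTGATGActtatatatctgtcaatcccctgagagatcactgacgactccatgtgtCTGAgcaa
Snord11, in Nop58, chr1:59704790-59704873, plus strand: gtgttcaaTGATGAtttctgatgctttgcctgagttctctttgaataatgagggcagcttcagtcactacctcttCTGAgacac
Snord82, in Ncl, chr1:86356261-86356330, minus strand: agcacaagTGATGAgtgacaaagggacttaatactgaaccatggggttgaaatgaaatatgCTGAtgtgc
Snora75, in Ncl, chr1:86351169-86351301, minus strand: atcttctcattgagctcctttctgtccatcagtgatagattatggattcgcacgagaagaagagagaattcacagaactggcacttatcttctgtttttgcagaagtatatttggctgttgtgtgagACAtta

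Library totals ran from 9385447 to 27351077 counts, with the second control library the shallowest and the 6 h libraries the deepest. The mitochondrial chromosome supplied 24.8% ± 0.135 (SD, n = 2) of control counts, 19.3% ± 0.520 (SD, n = 2) at 3 h, then 17.0% ± 0.595 (SD, n = 2) at 6 h; a fit without its genes gave the same numbers of member calls, 2 at 3 h, 15 at 6 h and 0 between them. All 12 stem cell markers were present, with a summed level of 7776 and 8091 CPM (counts scaled to a common library size) in control, 8759 and 9120 at 3 h, then 6466 and 6434 at 6 h. Markers of other lineages were low: fibroblast genes (6 of 8 listed) summed to between 4.71 and 10.5 CPM, endoderm genes (5 of 6 listed) to between 4.22 and 13.9, mesoderm genes (5 of 5) to between 5.62 and 12.6, and trophoblast genes (4 of 5) to between 4.89 and 11.5. The 5 neural markers summed to 347 and 337 CPM in control, 288 and 334 at 3 h, then 144 and 149 at 6 h; their part was not tested.

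Taken as a group, the members made up the same share of all counts at every time: 1.18% ± 0.00322 (SD, n = 2) in control, 1.18% ± 0.00806 (SD, n = 2) at 3 h, then 1.18% ± 0.0340 (SD, n = 2) at 6 h. Once mitochondrial-chromosome genes were left out of the total, the share was 1.57% ± 0.00146 (SD, n = 2), 1.46% ± 0.000558 (SD, n = 2) and 1.43% ± 0.0307 (SD, n = 2), and the control libraries lay above all treated libraries. Npm1 alone supplied between 36.6% and 48.1% of all member counts, and Tcof1 between 11.3% and 15.2%, with no correction for gene length. CPM is scaled by trimmed means of M values (TMM), which sets the libraries level over the bulk of genes. On that scale the members summed to 13531 ± 4.06 (SD, n = 2) CPM in control, 11551 ± 85.5 (SD, n = 2) at 3 h, then 10574 ± 167 (SD, n = 2) at 6 h. Without Npm1 and Tcof1 the sums were 5583 ± 146, 5182 ± 147 and 5123 ± 109 (SD, n = 2 each), so that much of the fall of the sum lay in Npm1.

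The scale decides the sign of the typical member. With TMM the median member log2 fold change was -0.10 at 3 h against control and -0.21 at 6 h, beside 0.02 and 0.04 over all tested genes. It was below 0 for 26 of the 42 members at 3 h and for 29 at 6 h, beside 47.7% of all genes at each time. With library size alone it was 0.12 and 0.15, beside 0.25 and 0.40 over all genes. The distance from the median gene was the same under both scalings and under DESeq2's size factors, at -0.13 for 3 h and -0.25 for 6 h. A change of scaling shifts every gene by about the same amount, so this sameness was fixed in advance and is not further support. Directions below are therefore relative to the middle of the measured transcriptome; fewer cells of a type or less RNA per cell cannot be told apart in bulk samples.

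**Figure D1:**
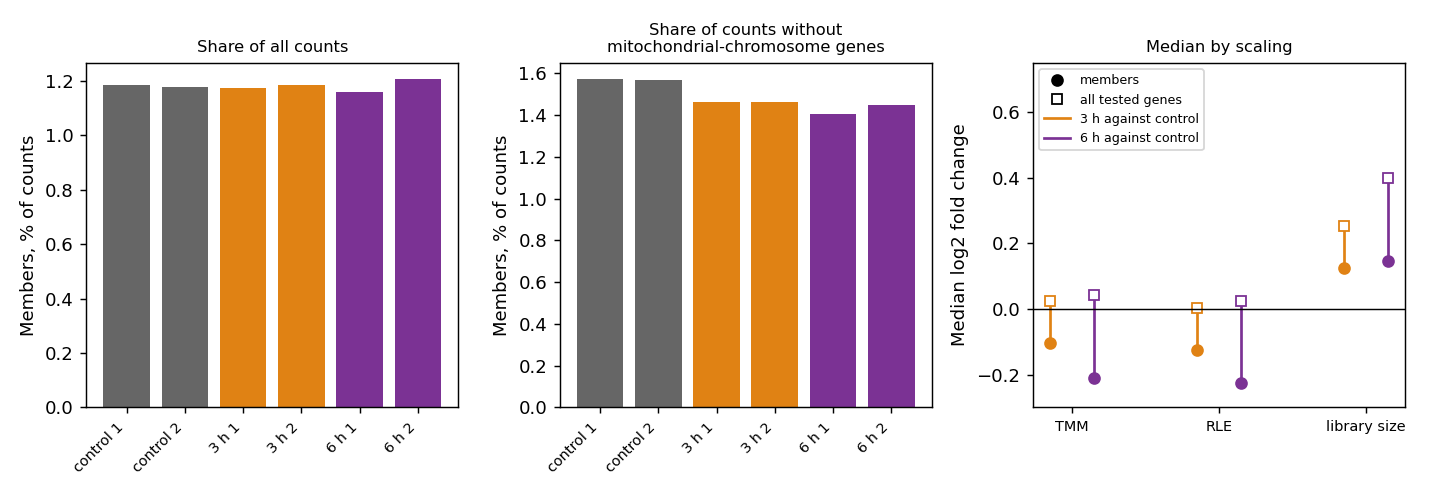
Share of counts from the 43 members in each library, over all counts (left) and without mitochondrial-chromosome genes (middle), in percent, and the median log2 fold change of the members and of all tested genes under 3 scalings (right). The left panel is level at about 1.18%, the middle panel is highest in the control libraries, and the member median turns from below 0 with TMM and DESeq2's size factors (RLE) to above 0 with library size alone while staying below the median of all genes.

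After 6 h the members split, with 4 higher and 11 lower than control on the TMM scale. Rrp8, Nol9, Utp3 and Nop58 rose between 1.34 and 1.67 fold, and Nop16, Npm1, Nol12, Rrp12, Rrp1b, Nop9, Ncl, Utp23, Utp20, Rrp9 and Fbl fell between 1.34 and 1.62 fold (edgeR's quasi-likelihood test, Benjamini-Hochberg adjusted p under 0.05). The 15 calls were 35.7% of the 42 tested members, where 29% of all tested genes were called. Higher calls were 9.52% of members against 14.8% of all genes, and lower calls 26.2% of members against 14.3% of all genes. In 29 members the libraries of control and 6 h did not overlap, 20 lower and 9 higher, beside 66.8% of all genes (31.2% lower and 35.7% higher). Changes were small: the median standard error (SE) of a member's log2 fold change was 0.14, and only Nol3 passed 2-fold, without being called.

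These calls depend on scale and on single libraries. Calls over all genes at 6 h were also fewer in each fit without 1 library, so fewer member calls there do not set the members apart. With library size alone 9 members were called higher (the 4 above with Nol10, Nop56, Rrp15, Rrp36 and Utp14a) and 1 lower (Npm1); none of the 15 changed sign, while 13 of all 42 members did. Over all genes, higher calls at 6 h were 50.8% of calls with TMM and 88.2% with library size alone. Without the first 6 h library 2 members were called (Npm1 and Nop10), and without the second only Npm1; the remaining 6 h library was then assumed to vary like the other groups. Without the second control library 9 were called: Nol9, Nop58, Rrp8, Nop9, Rrp12 and Utp20 were lost, and Utp3 was the 1 left higher. Without the first control library 16 were called: Fbl, Rrp1b and Utp23 were lost, and Dkc1 and Rrp36 (higher) and Polr1e and Nol6 (lower) were gained. Without the first 3 h library 10 were called, with Rrp8 and Utp3 as the 2 higher.

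**Figure D2:**
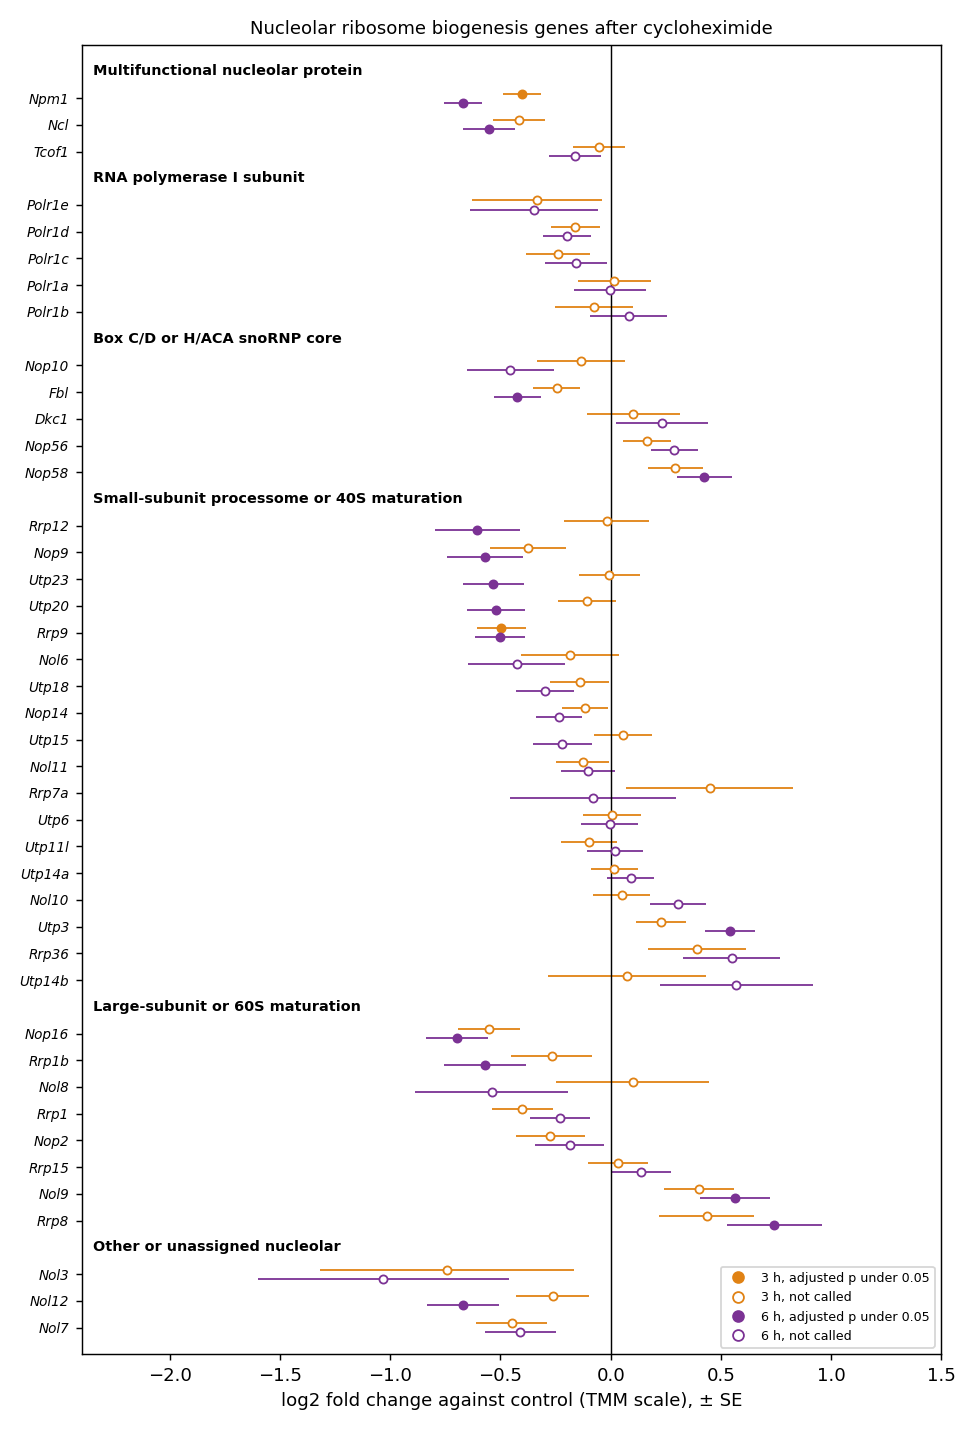
Log2 fold change against control (TMM scale) with its SE for the 42 tested members, grouped by role, at 3 h and at 6 h; filled points are genes called by edgeR's quasi-likelihood test. Most 6 h points lie between -0.70 and 0.74, the 5 RNA polymerase I subunits hold no filled point, and with library size alone 13 of the 42 signs at 6 h differ from those drawn.

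Among the 3 multifunctional nucleolar proteins, Npm1 and Ncl fell and Tcof1 was not called. Npm1 encodes nucleophosmin, an abundant chaperone of histones and ribosomal proteins, at chr11:33152287-33163206. It measured 5919 and 6513 CPM in control, 4649 and 4750 at 3 h, then 3824 and 3984 at 6 h. The groups stood in steps without overlap, with log2 fold changes of -0.40 (SE 0.09, adjusted p = 0.0379) at 3 h and -0.67 (SE 0.09, adjusted p = 0.00153) at 6 h. Npm1 has near-identical processed copies in the genome, and how reads shared with them were counted is not given in the sources used here. It was the only member called at 6 h under all 10 alternative settings and without each library in turn.

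Ncl encodes nucleolin, an RNA-binding protein of the nucleolus. Its level was 970 and 910 CPM in control, 776 and 635 at 3 h, then 623 and 660 at 6 h. Both control libraries lay above all treated ones, while the 3 h and 6 h libraries overlapped. The 6 h log2 fold change was -0.55 (SE 0.12, adjusted p = 0.0102), and the 3 h value of -0.41 (SE 0.12, adjusted p = 0.0774) was not called. Tcof1 encodes treacle, which promotes transcription of ribosomal DNA. Tcof1 measured 1928 and 1535 CPM in control, 1677 and 1663 at 3 h, then 1586 and 1508 at 6 h, with groups that overlapped at both times (6 h log2 fold change -0.16, SE 0.12, adjusted p = 0.332). The ratio of Npm1 to Ncl counts, which needs no scaling between libraries, was 6.11 and 7.15 in control, 5.99 and 7.49 at 3 h, then 6.14 and 6.04 at 6 h, with the groups overlapping. Npm1 against Tcof1 was 3.07 and 4.24 in control, 2.77 and 2.86 at 3 h, then 2.41 and 2.64 at 6 h, so that both control ratios were above all treated ones.

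The core proteins of box C/D particles among the members moved apart. Nhp2l1, a partner outside the members named after its values were seen, fell at 6 h (log2 fold change -0.44, SE 0.10, adjusted p = 0.0113). That call was lost with library size alone. Fbl, the methyltransferase at chr7:28169710-28179269, measured 175 and 163 CPM in control, 142 and 143 at 3 h, then 129 and 123 at 6 h. The groups were in downward order without overlap, with log2 fold changes of -0.25 (SE 0.11, adjusted p = 0.202) at 3 h and -0.42 (SE 0.11, adjusted p = 0.0202) at 6 h. Nop58, a scaffold protein of the same particle at chr1:59684971-59719044, measured 267 and 215 CPM in control, 294 and 297 at 3 h, then 314 and 334 at 6 h. The groups were in upward order without overlap, with log2 fold changes of 0.29 (SE 0.12, adjusted p = 0.192) at 3 h and 0.43 (SE 0.12, adjusted p = 0.0339) at 6 h. In fits without 1 library at a time the 6 h value of Nop58 ran from 0.28 to 0.59, and that of Fbl from -0.47 to -0.38. The call of Nop58 was kept in only 1 of these 6 fits and that of Fbl in 3. With library size alone Nop58 stayed called (0.78), and Fbl did not (-0.07). Nop56, its partner scaffold, measured 871 and 793 CPM in control, 955 and 911 at 3 h, then 945 and 1088 at 6 h; all treated libraries lay above control, and the 6 h log2 fold change of 0.29 (SE 0.11, adjusted p = 0.0752) was not called.

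Within-library ratios show the same divergence without any scaling. For Nop58 to Fbl the ratio of counts was 1.53 and 1.31 in control, 2.07 and 2.08 at 3 h, then 2.44 and 2.71 at 6 h. That of Nop56 to Fbl was 4.99 and 4.86, then 6.71 and 6.39, then 7.35 and 8.82. Both ratios were higher at each later time with no overlap, whereas Nop58 to Nop56 lay between 0.271 and 0.332 in all 6 libraries with overlapping groups. The ratios were chosen after the values were seen, and 2 libraries against 2 cannot go below an exact two-sided permutation p of 0.333.

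**Figure D3:**
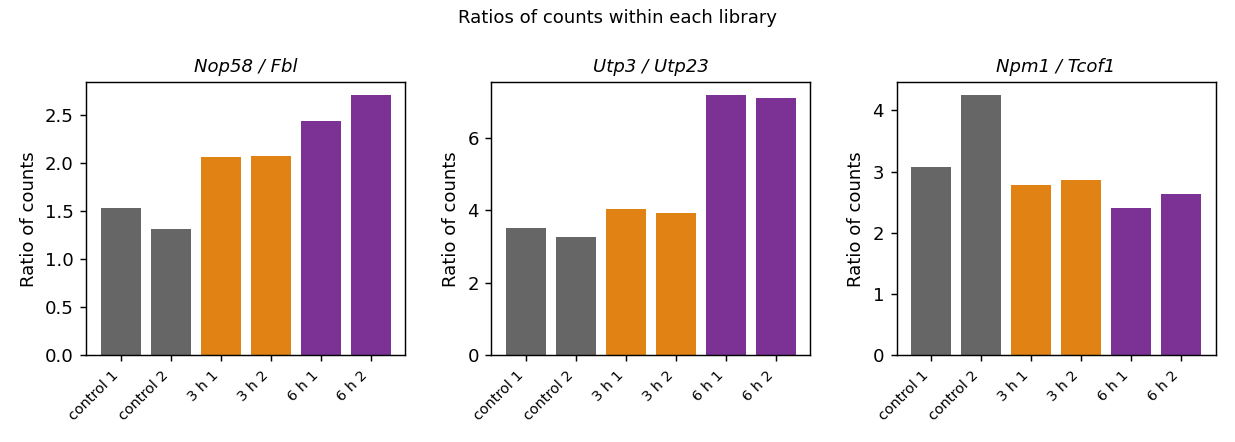
Ratios of counts between pairs of members within each of the 6 libraries, a measure that does not depend on how libraries are scaled. Nop58 / Fbl climbs from 1.31 and 1.53 in control to 2.44 and 2.71 at 6 h, and Utp3 / Utp23 is 7.18 and 7.10 at 6 h against at most 4.05 before.

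The box H/ACA proteins among the members, Dkc1 and Nop10, were not called. Nhp2, a partner outside the members named after its values were seen, fell at 6 h (log2 fold change -0.43, SE 0.10, adjusted p = 0.0156). That call was lost with library size alone. Gar1, another partner outside the members, was not called at 6 h with TMM (0.04, SE 0.14, adjusted p = 0.841). Dkc1, the pseudouridine synthase, measured 145 and 87.7 CPM in control, 131 and 120 at 3 h, then 128 and 147 at 6 h, and the spread of the controls spanned the 3 h values. Nop10, a small subunit of the same particle, measured 201 and 217 CPM in control, 170 and 211 at 3 h, then 185 and 120 at 6 h, with a 6 h log2 fold change of -0.46 (SE 0.20, adjusted p = 0.118). The 6 h value for Dkc1 was 0.23 (SE 0.21, adjusted p = 0.440), but 0.64 (adjusted p = 0.0166) without the first control library and -0.08 (adjusted p = 0.746) without the second. Nop10 was -0.80 (adjusted p = 0.0271) without the first 6 h library. Of the 5 core genes among the members, 1 rose and 1 fell at 6 h (40%, beside 29% of all tested genes), and the median change was 0.23 (log2).

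None of the 5 RNA polymerase I subunits was called at 3 h or 6 h, where 4.9% and 29% of all tested genes were. A count of 0 in 5 does not set these subunits apart. Polr1a, the largest subunit, measured 29.0 and 22.8 CPM in control, 26.3 and 26.4 at 3 h, then 25.0 and 26.9 at 6 h, with all groups overlapping. Polr1b, the second-largest, measured 15.2 and 13.9 in control, 14.0 and 13.7 at 3 h, then 14.7 and 16.3 at 6 h. For Polr1a the 6 h log2 fold change was -0.00 (SE 0.16, adjusted p = 0.994), and for Polr1b it was 0.08 (SE 0.18, adjusted p = 0.760). Polr1c and Polr1d belong to RNA polymerase III as well. Polr1c measured 120 and 139 CPM in control, 122 and 97.0 at 3 h, then 116 and 115 at 6 h. Polr1d measured 584 and 675 in control, 536 and 591 at 3 h, then 556 and 541 at 6 h. For both, the 6 h libraries lay just under control, by 0.16 (SE 0.14) and 0.20 (SE 0.11) on the log2 scale, without passing the test. Polr1e, a subunit that helps polymerase engage its template, had controls of 29.9 and 59.8 CPM that enclosed the 31.9 and 38.5 at 3 h and the 39.3 and 30.6 at 6 h. Its 6 h log2 fold change of -0.35 (SE 0.29, adjusted p = 0.407) became -0.78 (adjusted p = 0.0218) without the first control library and 0.23 (adjusted p = 0.469) without the second, so it rests on single control libraries.

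Of the 18 small-subunit genes, 1 rose, 5 fell and 12 were not called at 6 h, with log2 fold changes from -0.60 to 0.57 and a median of -0.16. Calls were 33.3% of this role, near the 29% of all tested genes. Utp3, a processome protein encoded at chr5:88554462-88556090, measured 114 and 102 CPM in control, 129 and 124 at 3 h, then 159 and 155 at 6 h. The groups did not overlap, with log2 fold changes of 0.23 (SE 0.11, adjusted p = 0.257) and 0.54 (SE 0.11, adjusted p = 0.00983). Rrp9, which binds the U3 snoRNA, measured 261 and 290 CPM in control, 201 and 190 at 3 h, then 185 and 204 at 6 h. The log2 fold change of Rrp9 was already -0.50 at 3 h (SE 0.11, adjusted p = 0.0452), and the value at 6 h was -0.50 (SE 0.11, adjusted p = 0.0123). Nop9, an RNA-binding protein needed for small-subunit rRNA, measured 47.4 and 58.3 CPM in control, 36.9 and 44.4 at 3 h, then 38.6 and 32.4 at 6 h (6 h log2 fold change -0.57, SE 0.17, adjusted p = 0.0371). The call of Nop9 was kept in 8 of the 10 alternative settings, but in only 1 of the 6 fits without 1 library. Rrp12, which takes part in the export of both subunits, measured 12.4 and 14.4 CPM in control and 12.9 and 13.6 at 3 h, and was 8.45 and 9.16 at 6 h (-0.60, SE 0.19, adjusted p = 0.0462). Both values of Rrp12 at 6 h lay under all other libraries, but its call was kept in only 4 of the 10 alternative settings. It was lost with limma-voom, with a replicate block, without a filter and with library size alone, among others.

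Utp20 and Utp23, named after their values were seen, were below control at 6 h; between 6 h and 3 h neither passed the test (adjusted p = 0.148 for Utp20 and 0.0969 for Utp23). Utp20, a scaffold of the processome, measured 48.3 and 53.2 CPM in control, 47.3 and 46.8 at 3 h, then 35.0 and 35.7 at 6 h (6 h log2 fold change -0.52, SE 0.13, adjusted p = 0.0198). Utp23, a processome protein with a nuclease-like fold, measured 32.3 and 31.3, then 31.8 and 31.6, then 22.2 and 21.8 (-0.53, SE 0.14, adjusted p = 0.0217). For both genes the 6 h libraries stood below the other 4. The ratio of Utp3 to Utp23 counts was 3.52 and 3.26 in control, 4.05 and 3.93 at 3 h, then 7.18 and 7.10 at 6 h. Without 1 library at a time each of the Utp20 and Utp23 calls was kept in 3 of 6 fits. The 6 h values then ran from -0.59 to -0.45 for Utp20 and from -0.55 to -0.51 for Utp23. Both calls were lost with library size alone (-0.16 and -0.18). The other 12 genes of this role were not called. In 7 of them the 6 h libraries did not overlap control: Nop14, Nol11 and Utp18 lay lower, and Nol10, Rrp36, Utp14a and Utp14b higher. The 66.8% of all genes without overlap includes called genes, so it is not a like measure for these 12. With library size alone Nop14, Nol11 and Utp18 were above 0 (0.12, 0.25 and 0.06), beside a median of 0.40 over all genes. Nol10, Rrp36, Utp14a and Utp14b stayed above 0. Rrp7a, with controls of 15.1 and 6.84 CPM, was too variable between libraries for changes of the size seen in the called genes to be detectable.

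Of the 8 large-subunit genes, Rrp8 and Nol9 rose, Nop16 and Rrp1b fell, and 4 were not called at 6 h. Calls were 50% of this role, beside 29% of all tested genes, and 8 genes are too few to set it apart. Rrp8, a methyltransferase that acts on large-subunit rRNA, measured 30.8 and 20.3 CPM in control, 39.3 and 30.5 at 3 h, then 44.7 and 41.6 at 6 h. Its 6 h log2 fold change of 0.74 (SE 0.21, adjusted p = 0.0321) was the highest among the tested members, and was 0.49 (adjusted p = 0.108) without the second control library. Nol9, an RNA kinase that acts at a spacer of the precursor, measured 34.2 and 26.6 CPM in control, 39.1 and 41.8 at 3 h, then 44.3 and 46.2 at 6 h (0.56, SE 0.16, adjusted p = 0.0285). The groups of Nol9 did not overlap, and those of Rrp8 did between control and 3 h.

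Nop16, a large-subunit assembly factor at chr13:54584185-54590090, measured 43.6 and 41.9 CPM in control, 30.6 and 27.7 at 3 h, then 25.6 and 27.2 at 6 h. The groups did not overlap, and the 6 h log2 fold change of -0.70 (SE 0.14, adjusted p = 0.00813) was the lowest of any called member; at 3 h it was -0.55 (SE 0.14, adjusted p = 0.0605). Rrp1b, a relative of the yeast large-subunit factor Rrp1, measured 104 and 71.8 CPM in control, 77.4 and 69.2 at 3 h, then 54.9 and 63.8 at 6 h (6 h -0.57, SE 0.18, adjusted p = 0.0478). Of the 6 fits without 1 library, the call was kept only in that without the second control library: it was lost without the first (-0.28, adjusted p = 0.250), without either 3 h library (0.0764 and 0.0741), without either 6 h library (0.225 and 0.108) and with library size alone. The uncalled Nol8 had controls of 77.9 and 40.1 CPM.

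Of the 3 tested genes outside these roles, Nol12 fell and Nol3 and Nol7 were not called. Nol12, an RNA-binding nucleolar protein, measured 24.2 and 23.9 CPM in control, 19.4 and 20.7 at 3 h, then 16.3 and 14.0 at 6 h. The groups did not overlap, with log2 fold changes of -0.26 (SE 0.16, adjusted p = 0.355) at 3 h and -0.67 (SE 0.16, adjusted p = 0.0172) at 6 h. Nol3 had between 14 and 34 counts in each library, or 2.08 and 1.71 CPM in control, 1.29 and 0.982 at 3 h, then 1.12 and 0.728 at 6 h, and its 6 h log2 fold change of -1.03 (SE 0.57, adjusted p = 0.207) was not called.

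**Figure D4:**
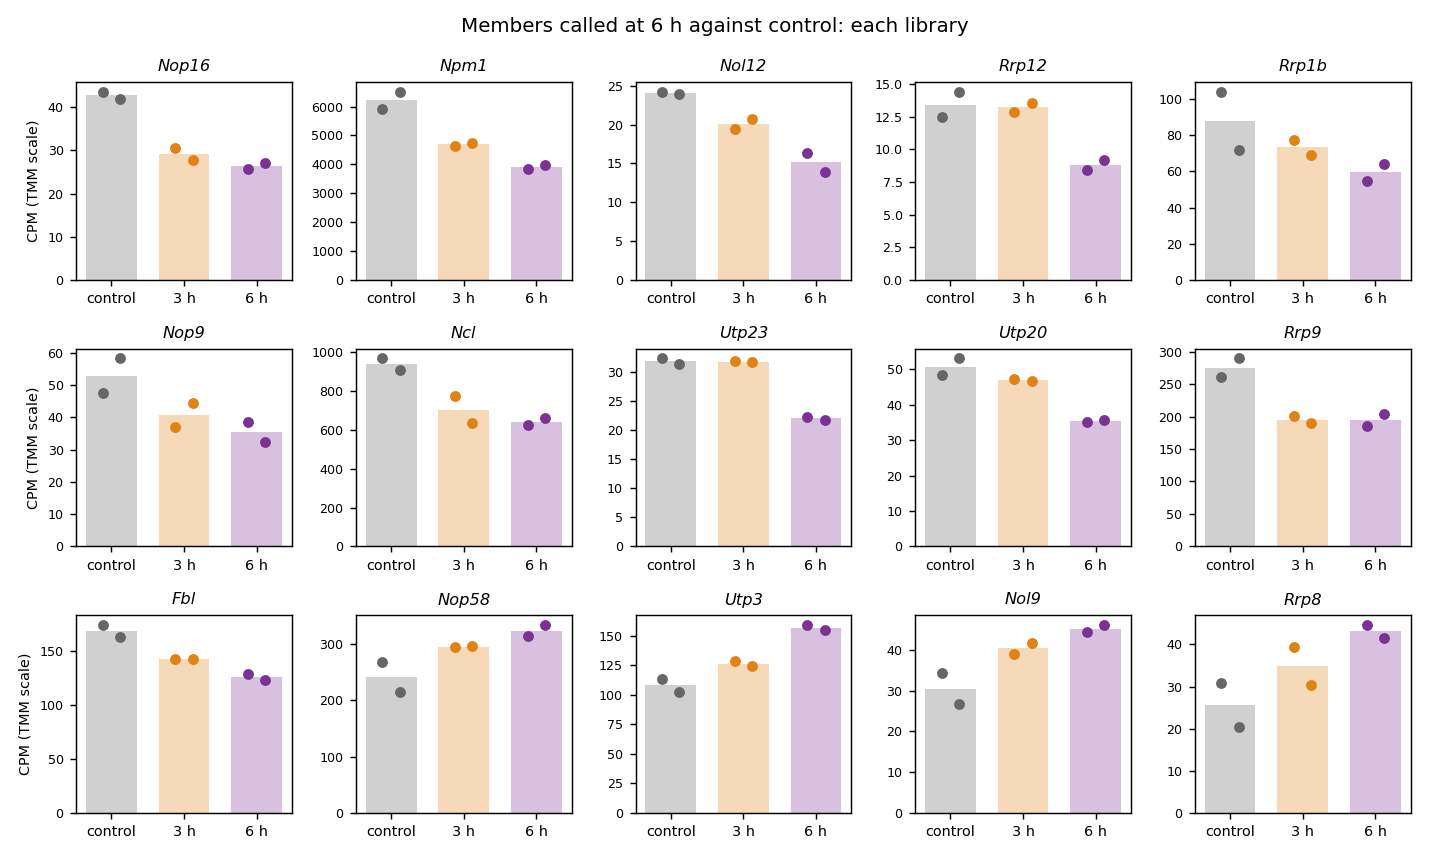
CPM on the TMM scale in each library for the 15 members called at 6 h against control, with axes starting at 0; points are the libraries and bars the means of control, 3 h and 6 h. The 6 h libraries of all 15 lie apart from control, as do those of 66.8% of all tested genes. The 15 were chosen by the test on these same libraries, so that separation is not separate support. With library size alone none of the 15 changes direction, but only Npm1 is called lower.

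At 3 h only Npm1 and Rrp9 were called, both lower, which is 4.76% of the tested members where 4.9% of all genes were called (3.6% higher and 1.3% lower). Libraries of 3 h and control did not overlap in 17 members, 12 lower and 5 higher, beside 53.2% of all genes. At an unadjusted p under 0.05 there were 9 members at 3 h and 20 at 6 h, with the share of all genes not given here. At 3 h DESeq2 called 4 members, where it called 11.3% of all genes. The fit with the 3 h and control libraries alone called 0, where 1.81% of all genes were called. Both calls were lost without the second control library (Npm1 -0.33, adjusted p = 0.0816; Rrp9 -0.42, adjusted p = 0.117) and without each 3 h or 6 h library. With library size alone they were not called, and Nol9, Nop58 and Utp3 were called higher; over all genes higher calls were then 95.8% of calls, against 73.4% with TMM. The comparisons of 3 h and 6 h share the same control libraries, so their values are not independent.

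Between 6 h and 3 h no member was called by edgeR's quasi-likelihood test, where 1.64% of all genes were (0.455% higher and 1.18% lower). In 23 members the libraries of the treatment times did not overlap, beside 54.1% of all genes. An unadjusted p under 0.05 was found for 6 members, with the share of all genes not given here. The median member value was -0.02 (log2), beside 0.01 over all genes, and 24 members were below 0, beside 49.4% of all genes. The smallest adjusted p belonged to Utp23 (-0.53, SE 0.14, adjusted p = 0.0969). DESeq2 called Utp23 alone among the members, where it called 5.39% of all genes. With limma-voom 0 members were called, beside 3.98% of all genes. Without a filter on low counts Nol8 was the single call, beside 6.05% of all genes.

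The rest of the pathway was read from 5 lists of other factors, of which 129 genes were in the files and 128 were tested. At 6 h 7 rose and 23 fell, 23.4% in all where 29% of all tested genes were called (14.8% higher and 14.3% lower), and their median was -0.15 (log2), beside 0.04 over all genes. Fewer of them were called without either 6 h library, and fewer of all genes were too. At 3 h 1 rose (Taf1d) and 2 fell (Cirh1a and Ebna1bp2), where 4.9% of all genes were called, and 0 were called without either 3 h or either 6 h library, 5 higher and 4 lower without the first control library, and 2 higher and 0 lower without the second. Between 6 h and 3 h only Imp3 was called, and it was lost without any of the 3 h or 6 h libraries. With library size alone 37 were called higher and 5 lower at 6 h, and 7 higher and 0 lower at 3 h.

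Among 13 polymerase I factors, 2 rose and 1 fell at 6 h, which is 23.1% called where 29% of all tested genes were. Taf1d, a subunit of the promoter-selectivity factor of polymerase I, measured 104 and 55.5 CPM in control, 189 and 177 at 3 h, then 240 and 263 at 6 h. Its libraries did not overlap between groups, with log2 fold changes of 1.19 (SE 0.24, adjusted p = 0.0313) at 3 h and 1.65 (SE 0.24, adjusted p = 0.00265) at 6 h. The 3 h call was lost without either 3 h library (adjusted p = 0.148 and 0.138) or either 6 h library (0.0586 and 0.0583). Polr2f, a subunit shared by the nuclear RNA polymerases, fell by 0.49 (SE 0.11, adjusted p = 0.0128) at 6 h. That call was lost without either 6 h library (adjusted p = 0.0865 and 0.0645) and with library size alone (-0.13, adjusted p = 0.377). Among 13 partners of snoRNA particles 0 rose and 3 fell, 23.1% called beside the same 29%. Ruvbl1, an ATPase of their assembly, fell by 0.64 (SE 0.12, adjusted p = 0.00706). The call of Ruvbl1 was lost without the second 6 h library and with library size alone (-0.28, adjusted p = 0.113).

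Of 37 further small-subunit genes, 1 rose and 6 fell at 6 h, which is 18.9% called where 29% of all tested genes were. Tsr1, a late small-subunit factor, rose by 1.10 (SE 0.18, adjusted p = 0.00366). Imp3, a partner of the U3 snoRNA, measured 36.0 and 39.7 CPM in control, 25.5 and 29.6 at 3 h, then 15.4 and 13.2 at 6 h, a fall of 1.40 on the log2 scale (SE 0.16, adjusted p = 0.00106) at 6 h. Of 49 large-subunit genes, 4 rose and 11 fell, and the 30.6% called was near the 29% of all tested genes. The ends were Surf6 at 1.05 (SE 0.19, adjusted p = 0.00592) and Wdr74 at -1.06 (SE 0.15, adjusted p = 0.00227). Surf6 is a nucleolar matrix protein and Wdr74 a large-subunit maturation factor. Of 16 exosome and rRNA exonuclease genes, 0 rose and 2 fell, 12.5% called beside the same 29%. The exosome subunit Exosc4 fell by 1.02 (SE 0.19, adjusted p = 0.00667), a call lost without the second 6 h library.

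The 4 members that host snoRNAs did not move as a block. At 6 h Nop58 rose, Ncl fell and Nop56 and Dkc1 were not called, and their median was 0.26 (log2), beside -0.22 for the other 38 members with 3 higher and 10 lower. Over all 210 tested protein-coding hosts 26 rose and 59 fell, with a median of -0.16, and over the 11369 other protein-coding genes 1607 rose and 1638 fell, with a median of 0.03. Snora75, whose sequence within Ncl is given above, was counted as a feature of its own and measured 33.9 and 21.4 CPM in control, 6.26 and 7.45 at 3 h, then 4.98 and 12.3 at 6 h. Its log2 fold change was -2.02 (SE 0.41, adjusted p = 0.0325) at 3 h and -1.69 (SE 0.40, adjusted p = 0.0151) at 6 h, beside -0.41 and -0.55 for Ncl; without the first control library neither passed (-1.64, adjusted p = 0.0555, and -1.31, adjusted p = 0.0524), the 3 h call was also lost without either 3 h library (adjusted p = 0.174 and 0.159) and the 6 h call without the first 6 h library (-1.17, adjusted p = 0.0515). It was named after its values were seen, and reads of the 2 features overlap in the genome. The libraries were of polyadenylated RNA, and whether these reads came from the snoRNA or from unspliced Ncl RNA was not tested. Snord11 had between 0 and 3 counts in each library, at or under the floor of 3 counts.

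An annotated transcript subject to nonsense-mediated decay, a pathway that degrades messages with early stop codons and depends on translation, was present in 15 tested members. Of these 3 rose (Nol9, Nop58 and Rrp8) and 4 fell (Nop16, Rrp1b, Rrp9 and Utp20) at 6 h, and their median was -0.16 (log2). Among all 3278 tested protein-coding genes with such a transcript 484 rose and 415 fell (median 0.05). Among the 27 members without one, 1 rose (Utp3) and 7 fell, with a median of -0.30, and among all 8301 such genes 1149 rose and 1282 fell (median 0.02). Gene-level counts do not separate transcripts, so the levels of these isoforms were not analysed here.

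Several called members overlap a gene on the opposite strand, and whether counting used the strand is not given in the sources used here. Rrp8 overlaps Ilk, which measured 40.7 and 44.0 CPM in control and 40.6 and 40.8 at 6 h. Rrp1b overlaps Hsf2bp, at 84.8 and 87.3 CPM in control and 102 and 108 at 6 h, and Rrp9 overlaps Parp3, at 1.19 and 1.95 in control and 3.73 and 3.49 at 6 h. Hsf2bp and Parp3 were thus higher at 6 h while the member on the other strand was lower, and Ilk overlapped between the groups. Nop9 and Utp23, also called, overlap Cideb and Gm34678 on the opposite strand, whose levels were not examined.

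Promoters were available in the RefSeq tables (GRCm38.p6) for 33 members. The 250 bases before each start were searched on both strands for CACGTG, the E-box bound by MYC and related factors, which are known regulators of ribosome biogenesis genes. It was present for 5 of the 33 (15.2%: Utp14b, Nop2, Utp18, Nol11 and Rrp7a), beside 10.2% of 9191 tested protein-coding genes with a promoter and 7.61% of all 17491. None of the 5 was called at 6 h (median log2 fold change -0.10), and of the 28 without it 4 rose and 7 fell (median -0.21). Among all genes 128 rose and 161 fell of 940 with the motif, and 1150 rose and 1192 fell of 8251 without, so a count of 0 in 5 does not set these members apart. The stretches upstream of 3 of them show where the motif lies, in capitals, with each line ending at the base before the start.
Nol11, chr11:107189382-107189461, minus strand: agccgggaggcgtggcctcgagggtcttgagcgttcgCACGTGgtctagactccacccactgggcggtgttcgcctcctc
Utp18, chr11:93885767-93885846, minus strand: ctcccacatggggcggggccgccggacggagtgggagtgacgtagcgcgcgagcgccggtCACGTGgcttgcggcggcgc
Nop2, chr6:125131803-125131882, plus strand: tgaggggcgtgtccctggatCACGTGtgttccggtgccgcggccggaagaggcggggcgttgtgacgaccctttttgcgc
The motif ends 37, 14 and 54 bases before the start in these genes. Levels of the 3 genes moved little: Nol11 was 98.3 and 92.5 CPM in control and 87.5 and 90.4 at 6 h, Utp18 94.3 and 113 in control and 84.8 and 84.0 at 6 h, and Nop2 238 and 188 in control and 171 and 204 at 6 h. The same windows held CCGGAAG, a site of ETS factors, in 7 of 33 members (21.2%, beside 15.9% of tested genes), TATAAA in 4 (12.1%, beside 7.46%), CCAAT in 10 (30.3%, beside 41.1%) and the NRF1 motif in 0 (beside 1.99%). No letters of 1 motif contain another, a match is not evidence of binding, and the absence of one says only that these letters are not in this window.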

How the data were processed

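For each library the authors deposited a file of raw counts by gene, from polyadenylated RNA extracted with TRIzol, per the labels' protocols. The submitters' processing notes name the mm10 build. The aligner, counter, annotation, strandedness and any use of molecular identifiers are not given in the sources used here, and replicates were not pooled. The design text mentions single cells while the title says bulk; each file holds 1 column and was read as 1 bulk library. A reporter row that names no gene (3 counts in all) was left out.

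Genes passing edgeR's filterByExpr by group (minimum count 10, minimum total 15) were scaled by TMM and fitted with edgeR's quasi-likelihood test (edgeR 4.0.16, R 4.3.3) over all 6 libraries with a mean per group and 3 residual degrees of freedom. Two-sided p-values were Benjamini-Hochberg adjusted over the 12755 tested genes in each comparison, and a call is an adjusted p under 0.05. The SE of a log2 fold change is its size divided by the square root of F. CPM are counts scaled to a common library size by TMM; they are not divided by gene length, so levels are not compared between genes. A count of 3, the detection floor, is 0.0990 to 0.367 CPM and covers counting error only. The code of the fit was checked on counts simulated with its own estimates of spread. That check cannot show how calls depend on single libraries. Alternatives were limma-voom (limma 3.58.1), DESeq2 1.42.0, other scalings and filters, a replicate block, and leaving out each library.

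Replicates differed beyond counting noise, chi-square over its degrees of freedom being 27.5 (control), 18.7 (3 h) and 27.7 (6 h). Members and lists were chosen with earlier results of these data known. Named genes are the 5 genes taken by name, the polymerase subunits and core snoRNA proteins, called members with non-overlapping libraries (the 6 largest and 6 smallest changes against control), the member of each role with the smallest p at 6 h, members failing the filter, and the 2 ends of each other pathway list; exceptions are marked. Utp11l was matched to Utp11 in the annotation by its synonym.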

Additional observations from a re-analysis of the deposited data

Results flagged for a closer look

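Imp3, a partner of the U3 snoRNA outside the members, differed between the treatment times. Its log2 fold change at 6 h against 3 h was -0.95 (SE 0.16, adjusted p = 0.0321, edgeR's quasi-likelihood test), and both 6 h libraries lay below both 3 h libraries. The call was lost when any of the 3 h or 6 h libraries was left out (log2 fold change -0.83 to -1.06, adjusted p = 0.125 to 0.282), and with library size alone (-0.82, adjusted p = 0.0517). It was the only one of the 128 other pathway genes, and none of the 42 members was, to pass this test.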

How the results depend on the processing

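Scaling by library size alone turned the member medians to 0.12 (3 h), 0.15 (6 h) and 0.11 (6 h against 3 h). It gave 3 members higher and 0 lower at 3 h, and 9 higher and 1 lower at 6 h; for other pathway genes 7 called at 3 h (7 higher, 0 lower), 37 higher and 5 lower at 6 h, and 0 between times. Over all genes, higher calls between 6 h and 3 h were 27.8% with TMM and 56.5% with library size alone. At 3 h the members called were 4 without a filter, 4 with DESeq2 and 0 with only the compared libraries, all lower. Over all genes these settings called 10.4%, 11.3% and 1.81%. Between times 1 member was called lower without a filter and 1 with DESeq2, beside 6.05% and 5.39% of all genes. limma-voom called 1 other pathway gene lower at 3 h and 3 lower between times.

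The replicate numbers did not pair the samples (correlations of deviations 0.09, -0.02 and 0.02). With a replicate block 1 member was called at 3 h (lower), 13 at 6 h and 0 between times, and Imp3 was no longer called between times (-0.94, adjusted p = 0.0589). Leaving out 1 library at a time gave 0 to 2 members at 3 h (lower, with 0 higher) and 1 to 16 at 6 h, 0 to 6 higher and 1 to 10 lower. Leaving out 1 library at a time, the member median for 6 h against 3 h ranged from -0.078 to -0.011. Calls over all genes at 6 h were also fewer in each of these fits. The cause of these changes was not tested.

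Without mitochondrial-chromosome genes the member share was 1.57%, 1.46% and 1.43% in control, 3 h and 6 h. Of 1584 values of named genes (with Utp20, Utp23 and Snora75) under alternatives, 1446 kept direction and side of the threshold or stayed uncalled, 104 lost a call, 34 gained one and 0 called values changed sign. At 6 h 4 of 15 members were called in all 10 settings (Npm1, Utp3, Nol9 and Rrp8). All 15 changes called at 6 h were at least 1.34 fold; with 2 libraries a group, no smaller member change was called then.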
